A study of Mus musculus with 17 samples.

Results

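The Notch receptors Notch1, Notch2 and Notch3, the ligands Dll1, Dll3, Dll4 and Jag1 and the target genes Hes1, Hes5 and Hey1 were followed through a mouse model of rhabdoid tumor, a childhood cancer defined by loss of Smarcb1, which codes for a core protein of the SWI/SNF chromatin remodeller. These 10 genes were chosen by name, for their place in the Notch pathway, from the 50600 gene IDs listed for each library, and all 10 were among the 21494 genes with enough counts to be tested. RNA had been sequenced from syngeneic grafts (n = 3), extracranial tumors (n = 4), Myc CNS tumors (n = 4), SHH CNS tumors (n = 3) and healthy brains (n = 3), all of the strain C57BL/6J. The 14 tumors carried the genotype SMARCB1 -/- and the brains were wild type. What drove the deletion, the ages of the mice and the tumors from which the grafts came are not given in the sources used here.

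Notch is a receptor that signals between touching cells. A ligand of the Delta-like or Jagged family on one cell binds Notch on its neighbour, ADAM proteases and then gamma-secretase cut the receptor, and the freed intracellular part enters the nucleus, where it joins the DNA-binding protein Rbpj and a Mastermind coactivator to switch on repressors of the Hes and Hey families. In the embryonic brain, newly forming neurons carry Dll1 and Dll3 while Hes1 and Hes5 keep their neighbours as radial glia, the neural stem cells. In blood vessels, Notch1 and Dll4 act in the endothelium and Notch3 in the smooth muscle and pericytes around it.

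Total counts ran from 36951431 to 96214427 in grafts, 22491998 to 52956537 in extracranial tumors, 18685672 to 114338058 in Myc tumors, 35662656 to 71390917 in SHH tumors and 103095016 to 130835711 in brains. Levels are given as CPM, a gene's counts scaled to a common library size. Smarcb1, the gene of the genotype label, had 2.52 to 33.2 CPM in the 14 tumors and 119 to 132 CPM in the brains. Some libraries held transcripts of other tissue: the summed level of 10 oligodendrocyte markers was 9687 CPM in SHH tumor 1, that of 6 pituitary markers 192 CPM in Myc tumor 1 and 1368 CPM in brain 1, and that of 10 skeletal muscle markers 188 CPM in extracranial tumor 1, 116 CPM in extracranial tumor 2, 127 CPM in Myc tumor 1 and 288 CPM in brain 1. Calls of the 10 genes that were lost without these libraries are given with both values. In whole tissue, fewer cells of a type and less RNA per cell cannot be told apart.

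Against brain, Notch2 was called higher in all tumor groups and Hes1 in all but grafts, while Dll1, Dll3 and Hes5 were called lower in all but SHH tumors. Dll4 was also called higher in grafts, and Notch3 and Hey1 lower in Myc tumors. A gene was called changed at an adjusted p under 0.05 in edgeR. In grafts 2 of the 10 genes rose, where 24.9% of the 21494 tested genes did, and 3 fell, against 30.4% of all tested genes. In extracranial tumors 2 rose (26.1% of all genes) and 3 fell (26.1%). In Myc tumors 2 rose (25.3%) and 5 fell (26.8%). In SHH tumors 2 rose (2.44%) and 0 fell (1.94%), with 4 of the 10 genes at an unadjusted p under 0.05 and 2 called by DESeq2. The 4 comparisons share the 3 brains.

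Between tumor groups, grafts had 1 of the 10 genes higher than in SHH tumors (20.4% of all genes) and 4 lower (25.8%). Extracranial tumors had 0 higher (18.6%) and 3 lower (19.7%) than SHH tumors. Myc tumors had 0 higher (19%) and 5 lower (21.9%) than SHH tumors. Grafts differed from Myc tumors in 1 gene, which was higher (3.12% of all genes), and in 0 lower genes (2.88%), a comparison in which 51.9% of the called genes of the whole table were higher by edgeR and 40.7% by DESeq2. No member was called between grafts and extracranial tumors by edgeR (2.16% of all genes higher, 2.62% lower), where 1 member had an unadjusted p under 0.05 and 1 was called by DESeq2. Extracranial and Myc tumors also had 0 members called by edgeR (0% of all genes higher, 0.0186% lower; among all called genes 0% were higher by edgeR and 39.3% by DESeq2), with 4 at an unadjusted p under 0.05 and 1 called by DESeq2. Most of these counts lie near the background shares, and nothing particular to the Notch genes is read from them.

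**Figure D1:**
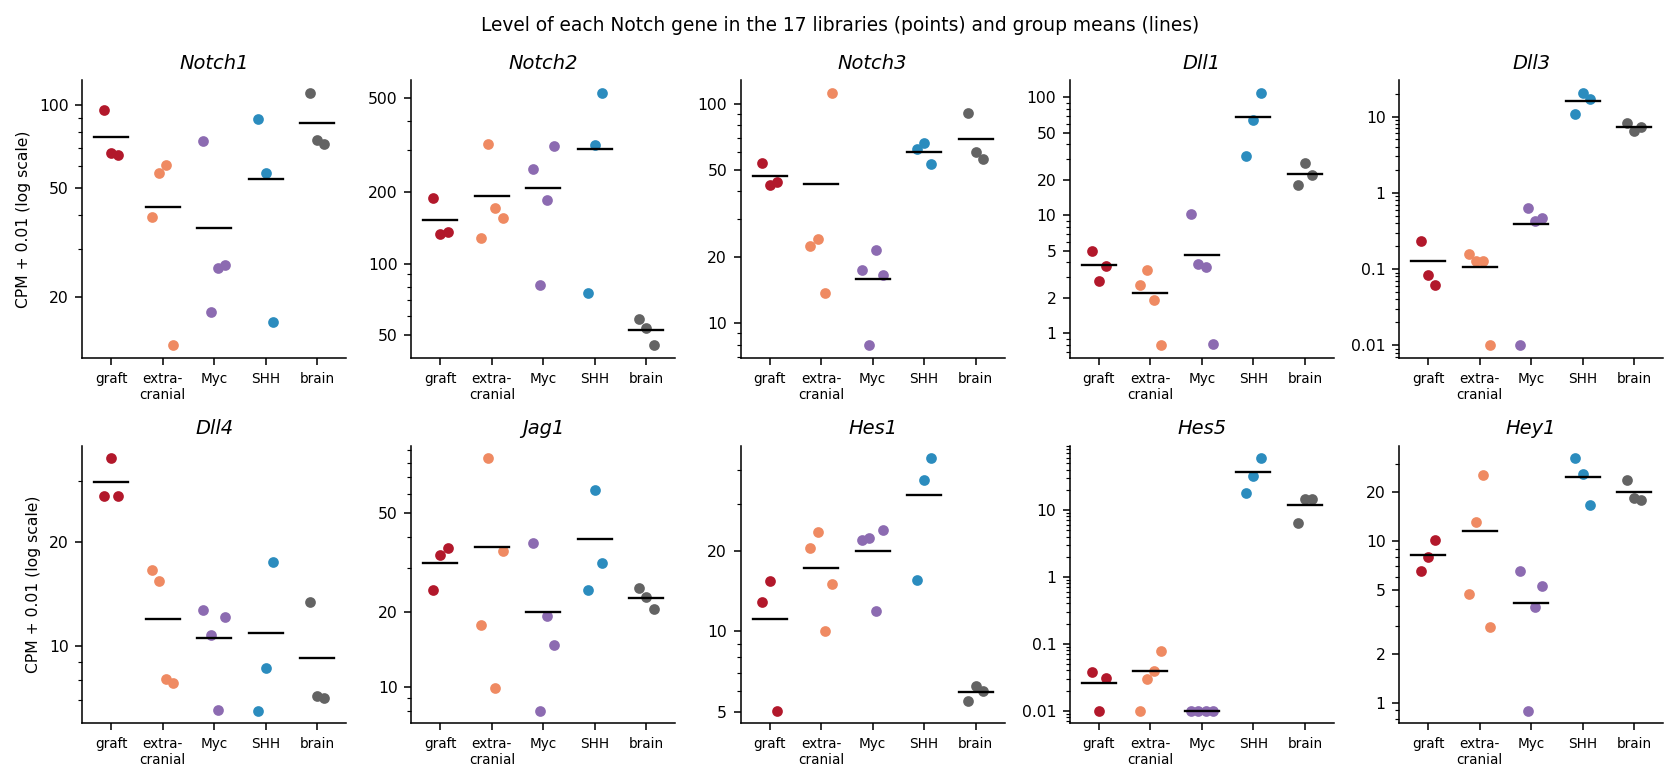
CPM of each of the 10 Notch genes (vertical axes, log scale, CPM + 0.01 so that libraries with no counts can be drawn) in the 17 libraries, 1 point per library, by group, with lines at the group means. All 14 tumors lie above the 3 brains for Notch2, and for Dll1, Dll3 and Hes5 all 11 grafts, extracranial and Myc tumors lie below the SHH tumors and brains.

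Notch2 (ENSMUSG00000027878.11, on the plus strand of chromosome 3 from 98013527 to 98150361 in GRCm38), one of the widely expressed Notch receptors, was higher in all tumor groups than in brain. It was at 189, 133 and 136 CPM in grafts, 127, 318, 171 and 156 CPM in extracranial tumors, 251, 81.0, 186 and 312 CPM in Myc tumors, 75.3, 317 and 523 CPM in SHH tumors and 58.2, 53.3 and 45.3 CPM in brains. Each of the 14 tumors lay above each of the 3 brains, which held for 7.1% of all tested genes. The spread was widest in SHH tumors, whose lowest library, SHH tumor 1, was the closest of all tumors to the brains. The log2 fold change over brain was 1.55 ± 0.58 (SE) in grafts (adjusted p = 0.0339), 1.89 ± 0.56 in extracranial tumors (0.0119), 1.99 ± 0.56 in Myc tumors (0.00922) and 2.54 ± 0.60 in SHH tumors (0.0314). In the first and the last of these groups the call did not hold when any one of several libraries was left out. The adjusted p for grafts was 0.052 to 0.101 without any single graft or brain, at a log2 fold change of 1.34 to 1.63. For SHH tumors it was 0.0601 without SHH tumor 2, 0.135 without SHH tumor 3 and 0.0786 to 0.138 without 1 brain, at a log2 fold change of 1.91 to 2.63. Without SHH tumor 1, Notch2 was also lower in grafts than in SHH tumors (log2 fold change -1.46, adjusted p = 0.0268), which it was not with all libraries (-0.997, 0.166).

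Macrophages also carry Notch2, and their markers moved with it against brain. The 10 macrophage markers summed to 7150 to 11200 CPM in grafts, 2770 to 8957 CPM in extracranial tumors, 1664 to 5460 CPM in Myc tumors, 365 to 539 CPM in SHH tumors and 76.3 to 115 CPM in brains, and 0 of them were at 0 in any group. The order of the groups was not the same: SHH tumor 3 had the highest Notch2 at a macrophage sum of 539 CPM, and graft 1 had the highest macrophage sum at 189 CPM of Notch2. The part of these cells in the Notch2 level was not tested.

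Notch1 (ENSMUSG00000026923.15, minus strand of chromosome 2, 26457903 to 26516663), the receptor of endothelium, neural stem cells and T cells, did not pass the test in any of the 10 comparisons. Its levels were 96.2, 67.2 and 66.1 CPM in grafts, 39.2, 56.8, 60.7 and 13.4 CPM in extracranial tumors, 73.9, 17.7, 25.6 and 26.2 CPM in Myc tumors, 89.2, 56.6 and 16.3 CPM in SHH tumors and 111, 74.9 and 72.2 CPM in brains. The tumor groups other than grafts thus ranged over several fold within each group, and 11 of the 14 tumors lay below every brain. In Myc tumors the log2 fold change from brain was -1.26 ± 0.58 (adjusted p = 0.0831), and it was -1.87 (0.0154) without Myc tumor 1, the library at 73.9 CPM.

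Notch3 (ENSMUSG00000038146.7, minus strand of chromosome 17, 32120820 to 32166852), the receptor of vascular smooth muscle and pericytes, had its lowest mean in Myc tumors. Myc tumors held 17.5, 7.93, 21.7 and 16.6 CPM, grafts 53.8, 42.5 and 44.2 CPM, extracranial tumors 22.4, 24.2, 13.7 and 112 CPM, SHH tumors 62.0, 66.5 and 53.0 CPM, and brains 90.4, 60.5 and 56.1 CPM. Myc tumors overlapped neither SHH tumors nor brains: Notch3 fell to a mean of 15.9 ± 5.8 CPM in Myc tumors (SD, n = 4), against 60.5 ± 6.9 CPM in SHH tumors (n = 3) and 69.0 ± 18.7 CPM in brains (n = 3). The log2 fold change of Myc tumors was -1.92 ± 0.56 from SHH tumors (adjusted p = 0.0143) and -2.11 ± 0.56 from brain (0.00647). The first of these was -1.97 with an adjusted p of 0.0621 when the 5 libraries with other tissue were left out. Myc tumors overlapped extracranial tumors, and the log2 fold change of extracranial over Myc tumors did not pass (1.435, adjusted p = 0.22). Neither did that of grafts over Myc tumors (1.555, 0.101). Low Notch3 is therefore not particular to Myc tumors among these 3 groups by this test.

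Extracranial tumor 4 stood apart from its group for Notch3. With it, extracranial tumors did not differ from brain (log2 fold change -0.68 ± 0.55, adjusted p = 0.317) or from SHH tumors (-0.49 ± 0.56, 0.507). Without it, Notch3 was lower in extracranial tumors than in brain (-1.80, 0.000888) and than in SHH tumors (-1.64, 0.0027). That library also had the highest sum of 10 mural cell markers, genes of pericytes and vascular smooth muscle, at 923 CPM, against 184 to 523 CPM in the other extracranial tumors. Per 100 CPM of these markers, Notch3 was at 9.50 ± 1.69 CPM in grafts (SD, n = 3), 7.61 ± 3.22 in extracranial tumors (n = 4), 5.41 ± 3.71 in Myc tumors (n = 4), 40.3 ± 6.8 in SHH tumors (n = 3) and 24.4 ± 2.0 in brains (n = 3). SHH tumors therefore held much Notch3 beside few mural transcripts, which summed to 122 to 190 CPM there. The part of mural cells in the Notch3 level was not tested.

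Per length of transcript, Notch2 held a larger share of the receptor transcripts in each tumor than in each brain, in a design too small for the adjusted test to pass. CPM per kilobase of exon were summed over the receptors in each library. Notch2 made up 55.8% ± 0.7 of this sum in grafts (SD, n = 3), 67.8% ± 13.3 in extracranial tumors (n = 4), 80.2% ± 5.5 in Myc tumors (n = 4), 63.5% ± 27.2 in SHH tumors (n = 3) and 25.3% ± 2.9 in brains (n = 3). Every tumor, from 33.4% in the lowest SHH tumor upward, lay above every brain, the highest of which was at 28.0%. By a two-sided exact permutation test over libraries, chosen after the values were seen, the p against brain was 0.1 in grafts, 0.0571 in extracranial tumors, 0.0286 in Myc tumors and 0.1 in SHH tumors. The smallest p these designs allow is 0.1, 0.0286, 0.0286 and 0.1 in the same order of groups, and all 4 were 0.1 after Benjamini-Hochberg adjustment over the 4 tests. Even the smallest p values could not have given an adjusted p under 0.05, so nothing is concluded from this test. Notch3 was still above Notch2 in SHH tumor 1 (36.6% against 33.4%) and close to it in extracranial tumor 4 (47.4% against 49.4%). It made up 8.93% to 23.0% of the sum on average in the tumor groups and 43.7% ± 1.9 in brains. The total itself was 25.3 ± 4.9 CPM per kilobase in grafts, 26.2 ± 8.4 in extracranial tumors, 23.7 ± 10.5 in Myc tumors, 39.6 ± 17.7 in SHH tumors and 19.4 ± 4.4 in brains.

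**Figure D2:**
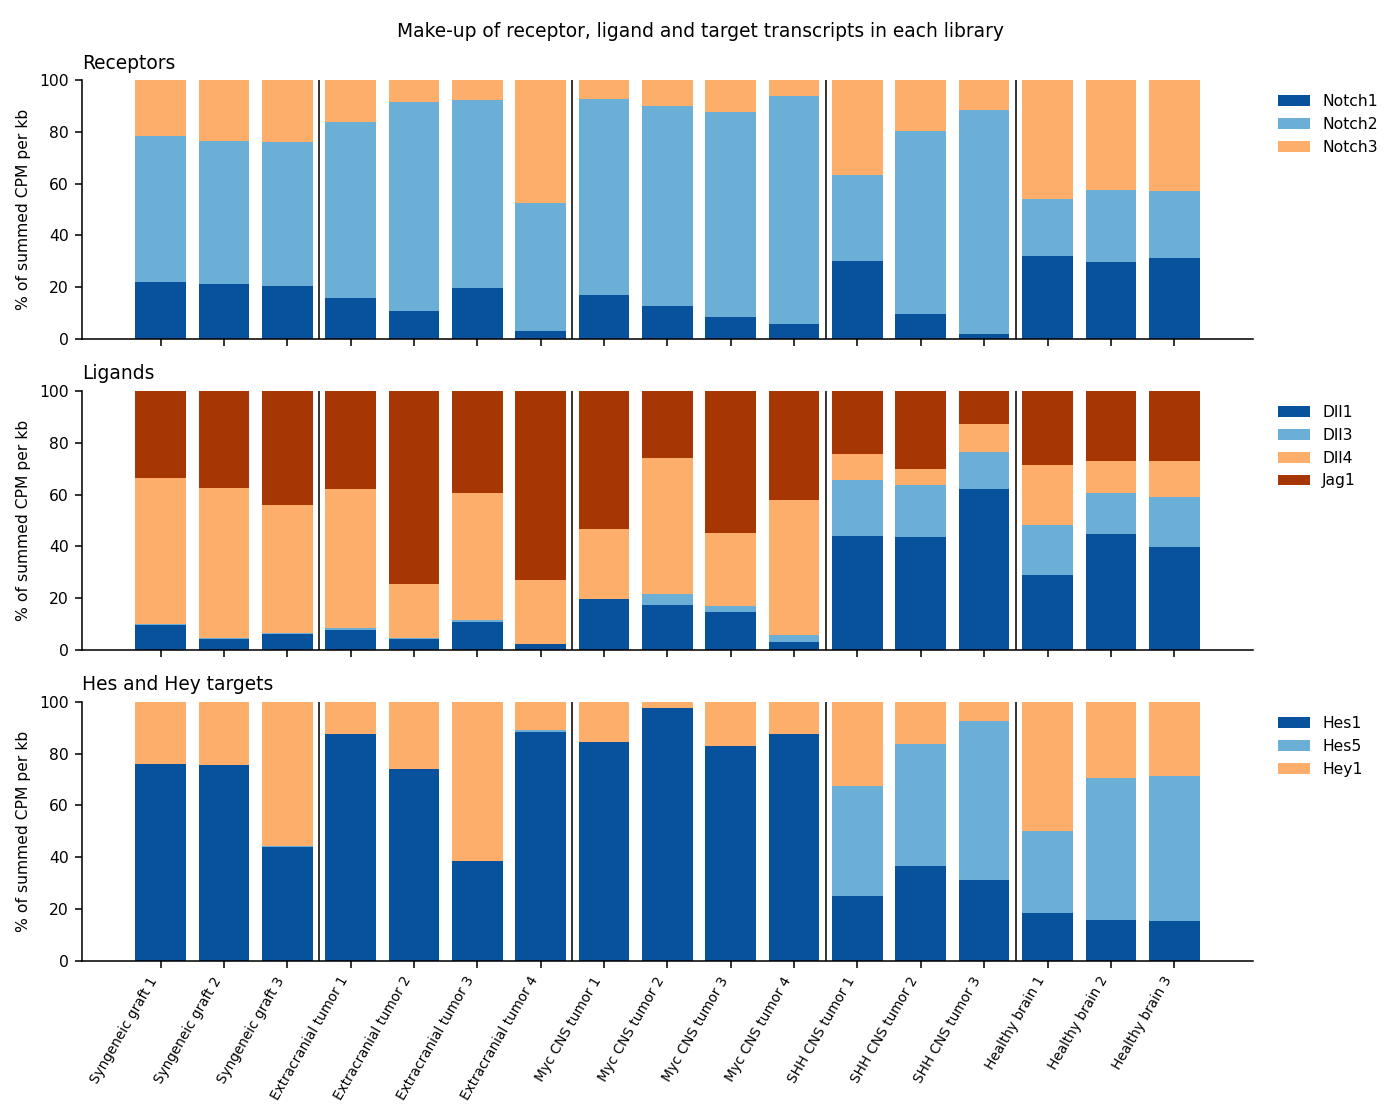
Share of each gene in the summed CPM per kilobase (percent, vertical axes) of the receptors, the ligands and the Hes and Hey targets, 1 bar per library, with vertical lines between groups. Notch2 makes up 33.4% or more of the receptors in each tumor and 28.0% or less in each brain, and Hes5 is visible among the targets of SHH tumors and brains, at 42.8% to 61.7% in SHH tumors and 31.8% to 55.9% in brains.

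Dll1 and Dll3, the Delta-like ligands of newly forming neurons, were both low outside SHH tumors and brain. Dll1 (ENSMUSG00000014773.13, minus strand of chromosome 17, 15367354 to 15376872) presents itself to Notch on the neighbouring cell, while Dll3 (ENSMUSG00000003436.11, minus strand of chromosome 7, 28293553 to 28302238) is a divergent ligand that inhibits Notch within its own cell. Dll1 was at 4.95, 2.76 and 3.72 CPM in grafts, 2.59, 3.46, 1.91 and 0.78 CPM in extracranial tumors, 10.2, 3.86, 3.66 and 0.81 CPM in Myc tumors, 31.8, 64.9 and 109 CPM in SHH tumors and 18.3, 27.8 and 21.9 CPM in brains. The groups fell into a low set of 11 libraries, up to 10.2 CPM, and a high set of SHH tumors and brains, from 18.3 CPM. A pattern with all 11 below every SHH tumor and brain held for 12.4% of all tested genes. Against SHH tumors the log2 fold change of Dll1 was -4.17 ± 0.79 in grafts (adjusted p = 0.000878), -4.97 ± 0.73 in extracranial tumors (0.0002) and -3.90 ± 0.69 in Myc tumors (0.000779). Against brain it was -2.57 ± 0.74 in grafts (0.00893), -3.37 ± 0.68 in extracranial tumors (0.00106) and -2.30 ± 0.66 in Myc tumors (0.00987). SHH tumors lay above every brain, at 68.7 ± 38.9 CPM in SHH tumors and 22.6 ± 4.8 CPM in brains (SD, n = 3 each), without passing the test (1.60 ± 0.71, 0.205).

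Dll3 was close to the detection limit in the same 11 libraries. It had 8, 4 and 5 counts in grafts, 3, 6, 4 and 0 counts in extracranial tumors, 0, 12, 47 and 31 counts in Myc tumors, 416, 868 and 1505 counts in SHH tumors and 1041, 670 and 912 counts in brains. That is a mean of 0.117 ± 0.094 CPM in grafts, 0.0956 ± 0.0651 in extracranial tumors, 0.375 ± 0.266 in Myc tumors, 16.1 ± 4.9 in SHH tumors and 7.34 ± 0.89 in brains. No library of the low groups reached 1 CPM, and none of the high ones was below 6.5 CPM. Pooled over the libraries of a group, the level was below that of brain by a factor of 80.7 in grafts (95% interval 50.4 to 139, counting error only), 76.7 in extracranial tumors (44.9 to 144) and 18.0 in Myc tumors (14.6 to 22.4). The tests of these differences gave an adjusted p of 0.000409 in grafts, 0.00016 in extracranial tumors and 0.00123 in Myc tumors. Myc tumors were higher than grafts and extracranial tumors by DESeq2 (adjusted p = 0.0314 for grafts and 0.0405 for extracranial tumors) but not by edgeR (0.245 and 0.282).

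The promoters of the genes that were low together are shown because Hes5 is a direct target of Rbpj and Dll1 and Dll3 are known targets of proneural factors, which bind E-boxes. The 250 bases upstream of the RefSeq start sites were read in GRCm38.p6 and searched on both strands for the Rbpj motif GTGGGAA, which reads TTCCCAC on the other strand, and for the E-box CAGCTG, which is its own reverse complement. Sequences of 8 of the 10 genes were matched; Hes1 and Hey1 are named only. Capitals mark the matches, and each sequence runs 5′ to 3′ toward the start site on the gene's own strand.
Hes5, chr4:154960673-154960922, plus strand: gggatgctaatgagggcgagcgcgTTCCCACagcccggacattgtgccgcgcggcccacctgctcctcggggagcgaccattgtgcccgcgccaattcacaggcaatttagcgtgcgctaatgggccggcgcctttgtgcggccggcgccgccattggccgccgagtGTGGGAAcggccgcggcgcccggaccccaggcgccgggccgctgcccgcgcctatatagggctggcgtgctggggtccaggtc
Dll3, chr7:28301786-28302035, minus strand: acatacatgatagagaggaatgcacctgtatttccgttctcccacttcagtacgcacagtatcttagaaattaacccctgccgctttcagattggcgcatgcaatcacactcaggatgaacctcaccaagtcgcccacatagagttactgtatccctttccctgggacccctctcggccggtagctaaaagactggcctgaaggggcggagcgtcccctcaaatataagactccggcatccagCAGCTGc
Dll1, the upstream of 2 entries, chr17:15376933-15377182, minus strand: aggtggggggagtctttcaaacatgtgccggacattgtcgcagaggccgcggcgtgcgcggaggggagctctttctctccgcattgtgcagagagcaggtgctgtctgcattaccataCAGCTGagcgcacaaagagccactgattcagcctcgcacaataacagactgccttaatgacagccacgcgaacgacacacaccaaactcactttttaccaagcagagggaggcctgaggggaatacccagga
The Hes5 window held 2 Rbpj matches, with first bases at -226 and -83 from the start site, where none of the other matched genes had one and 5.42% of all 32851 promoters of the same length did. An E-box of these letters was found in Dll3 at -7, in the upstream entry of Dll1 at -132 and in Jag1 at -82, and in 13.0% of all promoters. These are matches of letters, and no binding was measured.

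Dll4 (ENSMUSG00000027314.6, plus strand of chromosome 2, 119325784 to 119335962), the ligand of sprouting endothelium, was higher in grafts than in SHH tumors, Myc tumors and brain. Grafts held 27.1, 34.8 and 27.1 CPM, extracranial tumors 16.6, 15.4, 8.05 and 7.85 CPM, Myc tumors 12.7, 10.7, 6.56 and 12.1 CPM, SHH tumors 6.52, 8.65 and 17.5 CPM, and brains 13.4, 7.17 and 7.10 CPM. The 3 grafts lay above the other 14 libraries. The log2 fold change of grafts was 1.496 ± 0.40 over Myc tumors (adjusted p = 0.0439), 1.45 ± 0.44 over SHH tumors (0.0154), 1.69 ± 0.44 over brain (0.00547) and 1.31 ± 0.40 over extracranial tumors, where it did not pass (0.0688). The call against brain held in all alternatives run. Against Myc tumors it was lost without any single graft or Myc tumor (0.0595 to 0.144, at a log2 fold change of 1.31 to 1.56). Against SHH tumors it was lost without graft 2 (0.0587), SHH tumor 1 (0.0653) or SHH tumor 2 (0.0613). Grafts passed the test over extracranial tumors by DESeq2 (0.012), without extracranial tumor 1 (1.48, 0.0495) and without the 5 libraries with other tissue (1.87, 0.0425).

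Endothelial markers were also highest in grafts. The sum of 13 such genes was 613 to 685 CPM in grafts, 152 to 473 CPM in extracranial tumors, 265 to 455 CPM in Myc tumors, 130 to 251 CPM in SHH tumors and 284 to 371 CPM in brains, with 0 of the 13 at 0 in any group. Of these genes 4 rose and 0 fell in grafts against brain, where 24.9% of all tested genes rose and 30.4% fell. Per 100 CPM of the endothelial sum, Dll4 was at 4.58 ± 0.95 CPM in grafts (SD, n = 3), 4.42 ± 0.87 in extracranial tumors (n = 4), 2.79 ± 0.28 in Myc tumors (n = 4), 6.58 ± 3.94 in SHH tumors (n = 3) and 2.79 ± 0.72 in brains (n = 3). On this scale each graft (3.96 or more) lay above each Myc tumor (3.15 or less) and each brain (3.61 or less). Grafts did not stand above extracranial or SHH tumors. The part of the endothelium in the Dll4 level was not tested beyond these values.

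**Figure D3:**
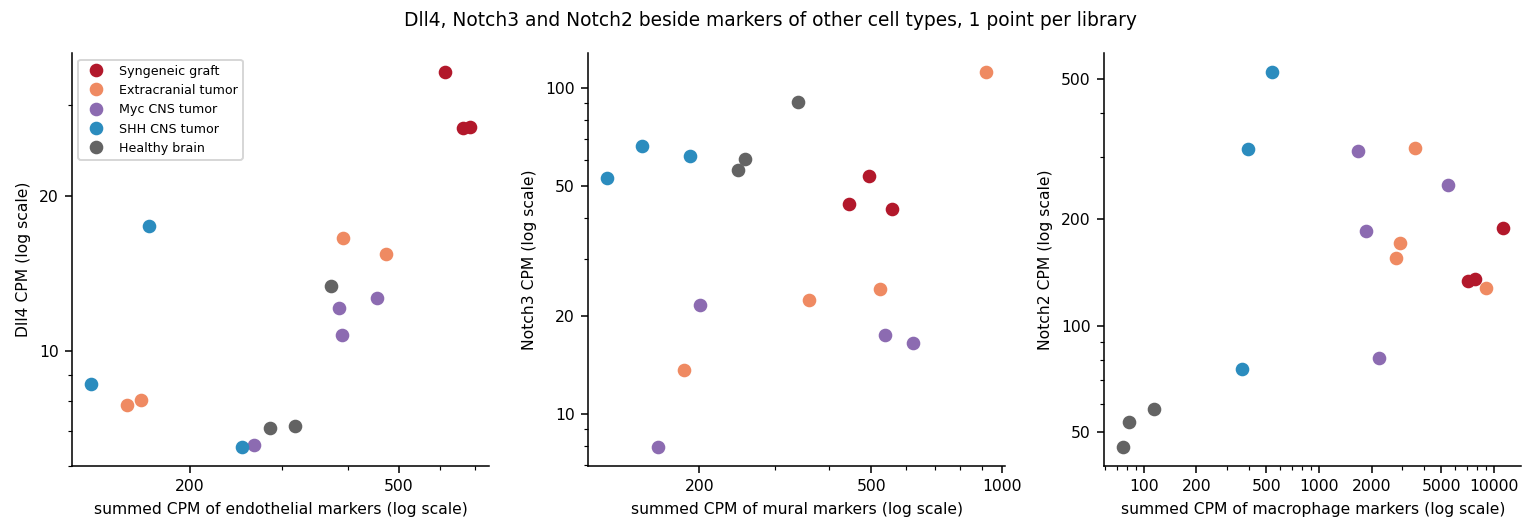
Dll4 against the summed CPM of endothelial markers, Notch3 against that of mural markers and Notch2 against that of macrophage markers (both axes in CPM, log scale), 1 point per library, colored by group. The 3 grafts hold both the most Dll4 (27.1 CPM or more) and the most endothelial transcripts (613 CPM or more), and the extracranial tumor at 112 CPM of Notch3 has the highest mural sum (923 CPM).

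Jag1 (ENSMUSG00000027276.7, minus strand of chromosome 2, 137081456 to 137116644), a ligand of the Jagged family found in many tissues, passed the test in none of the 10 comparisons. Its levels spread widely, at 24.4, 34.0 and 36.3 CPM in grafts, 17.7, 83.3, 9.81 and 35.1 CPM in extracranial tumors, 37.8, 7.98, 19.3 and 14.7 CPM in Myc tumors, 24.4, 61.9 and 31.4 CPM in SHH tumors and 24.9, 22.9 and 20.5 CPM in brains. The log2 fold change over brain lay between -0.19 in Myc tumors and 0.79 in SHH tumors. When the 5 libraries with other tissue were left out, Myc tumors were below SHH tumors (-1.74, adjusted p = 0.044), against -0.98 ± 0.61 (0.214) with all libraries.

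Set side by side per kilobase, the 4 ligands made up different mixes. Dll4 and Jag1 were the bulk of the sum outside SHH tumors and brain. Dll4 held 54.7% ± 4.4 in grafts (SD, n = 3), 37.1% ± 16.7 in extracranial tumors (n = 4), 40.0% ± 14.3 in Myc tumors (n = 4), 9.02% ± 2.37 in SHH tumors (n = 3) and 16.7% ± 5.7 in brains (n = 3). Jag1 held 38.4% ± 5.2 in grafts, 56.3% ± 20.3 in extracranial tumors, 44.0% ± 13.4 in Myc tumors, 22.4% ± 8.7 in SHH tumors and 27.4% ± 1.0 in brains. Dll1 held the largest share in SHH tumors (49.8% ± 10.6) and in brains (37.8% ± 8.1). The 4 ligands summed to 14.1 ± 1.5 CPM per kilobase in grafts, 9.92 ± 6.42 in extracranial tumors, 7.38 ± 3.22 in Myc tumors, 31.5 ± 12.8 in SHH tumors and 14.2 ± 1.0 in brains. These shares were not tested.

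Hes5 (ENSMUSG00000048001.7, plus strand of chromosome 4, 154960923 to 154962371), the Notch target of radial glia whose promoter is printed above, was all but absent from grafts, extracranial and Myc tumors. Grafts had 1, 0 and 2 counts, extracranial tumors 0, 1, 1 and 2 counts, and Myc tumors 0 counts in each of 4 libraries, against 697, 1350 and 5206 counts in SHH tumors and 804, 1478 and 1836 counts in brains. In CPM that is 17.9, 31.7 and 58.9 in SHH tumors and 6.38, 14.3 and 14.6 in brains. No library of the low groups came near those of the high ones. Over the pooled libraries, the level of grafts was below that of brain by a factor of 718 (95% interval 246 to 3482) and below that of SHH tumors by 2644 (905 to 12820). For extracranial tumors the factor to brain was 391 (153 to 1436) and to SHH tumors 1441 (563 to 5288). Myc tumors, set at a floor of 3 counts over the group, were at least 847-fold lower than brain and at least 3119-fold lower than SHH tumors. SHH tumor 3 held most of the SHH counts, and without it the factors to SHH tumors were 1556 in grafts, 848 in extracranial tumors and at least 1836 in Myc tumors. Intervals and floors cover counting error only. The adjusted p against brain was 2.22e-05 in grafts, 1.65e-05 in extracranial tumors and 8.98e-06 in Myc tumors, and all 6 calls against brain and SHH tumors held in every alternative run. SHH tumors were at 36.2 ± 20.9 CPM and brains at 11.8 ± 4.7 CPM (SD, n = 3 each), a log2 fold change of 1.62 ± 0.66 that did not pass (0.181).

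Markers of radial glia and astrocytes were low in the same groups. The 12 markers summed to 74.3 to 96.4 CPM in grafts, 256 to 495 CPM in extracranial tumors, 245 to 991 CPM in Myc tumors, 2228 to 5420 CPM in SHH tumors and 1717 to 1953 CPM in brains. Of these markers 10 fell in grafts, 8 in extracranial tumors, 5 in Myc tumors and 0 in SHH tumors against brain, and 0 rose in any of them. Of all tested genes 30.4%, 26.1%, 26.8% and 1.94% fell in the same order of groups, and 24.9%, 26.1%, 25.3% and 2.44% rose. The 12 neuron markers summed to 201 to 1002 CPM in grafts, 63.0 to 858 CPM in extracranial tumors, 109 to 1970 CPM in Myc tumors, 851 to 4822 CPM in SHH tumors and 6935 to 8353 CPM in brains. The part of neural cells in the levels of Hes5, Dll1 and Dll3 was not tested.

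Hes1 (ENSMUSG00000022528.7, plus strand of chromosome 16, 30064384 to 30067796), the Hes repressor that is active in many tissues and also under other signals, went the other way. It was at 12.9, 15.4 and 5.03 CPM in grafts, 20.5, 23.5, 10.02 and 15.0 CPM in extracranial tumors, 22.0, 22.3, 11.8 and 23.9 CPM in Myc tumors, 15.6, 37.0 and 44.4 CPM in SHH tumors and 5.49, 6.22 and 5.98 CPM in brains. Of the 14 tumors 13 lay above every brain, and graft 3 lay below them all. The log2 fold change over brain was 1.55 ± 0.45 in extracranial tumors (adjusted p = 0.0103), 1.76 ± 0.45 in Myc tumors (0.00526) and 2.45 ± 0.48 in SHH tumors (0.0157). In grafts it was 0.91 ± 0.46 (0.106), and 1.26 (0.0324) without graft 3. The call in Myc tumors held in every alternative run. That in extracranial tumors was lost without the 5 libraries with other tissue (1.04, 0.148), and that in SHH tumors without SHH tumor 3 (2.16, 0.0737) or without brain 1, 2 or 3 (0.0523 to 0.0857). Hes1 was also lower in grafts than in SHH tumors (-1.54 ± 0.47, 0.0151), which was lost without graft 3 (0.061) or SHH tumor 3 (0.0619). Without SHH tumor 1, extracranial tumors were below SHH tumors too (-1.24, 0.0416).

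Hey1 (ENSMUSG00000040289.8, minus strand of chromosome 3, 8663359 to 8667256), a Notch target of vessels and mesenchyme, had its lowest mean in Myc tumors. It was at 6.51, 0.89, 3.89 and 5.31 CPM in Myc tumors, 6.499, 7.98 and 10.2 CPM in grafts, 4.68, 13.1, 25.7 and 2.96 CPM in extracranial tumors, 32.5, 26.1 and 16.6 CPM in SHH tumors and 24.0, 18.6 and 18.0 CPM in brains. Myc tumors overlapped neither SHH tumors nor brains. They did overlap grafts and extracranial tumors, and neither of these comparisons passed (adjusted p = 0.377 for grafts and 0.273 for extracranial tumors). The log2 fold change of Myc tumors was -2.59 ± 0.68 from SHH tumors (adjusted p = 0.00797) and -2.28 ± 0.67 from brain (0.0116), and both calls held in every alternative run. Grafts were at -1.29 ± 0.72 from brain (0.139) and extracranial tumors at -0.80 ± 0.66 (0.323). Without extracranial tumor 3, the library at 25.7 CPM, extracranial tumors were below SHH tumors (-1.86, 0.0329).

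Per kilobase, Hes1 held the largest mean share of the target trio in grafts, extracranial and Myc tumors, although Hey1 was ahead in graft 3 (55.8% against 44.0%) and in extracranial tumor 3 (61.4% against 38.4%). Hes1 held 65.1% ± 18.3 of the summed level in grafts (SD, n = 3), 72.2% ± 23.4 in extracranial tumors (n = 4), 88.2% ± 6.6 in Myc tumors (n = 4), 30.9% ± 5.9 in SHH tumors (n = 3) and 16.5% ± 1.6 in brains (n = 3). Hes5 held 0.173% ± 0.151 in grafts, 0.215% ± 0.265 in extracranial tumors, 0% in Myc tumors, 50.5% ± 9.9 in SHH tumors and 47.4% ± 13.6 in brains. The trio summed to 7.98 ± 2.21 CPM per kilobase in grafts, 12.1 ± 3.0 in extracranial tumors, 11.1 ± 2.9 in Myc tumors, 50.1 ± 19.7 in SHH tumors and 17.7 ± 2.6 in brains.

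**Figure D4:**
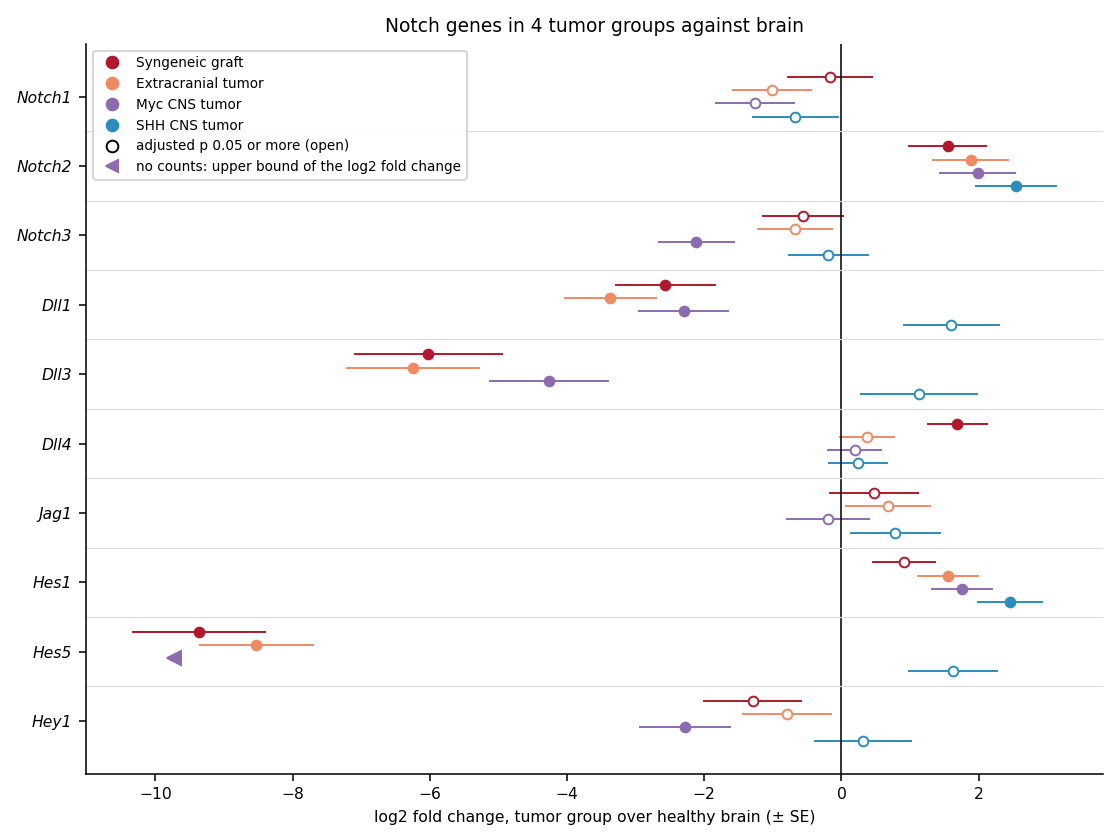
Log2 fold change over healthy brain (horizontal axis, ± SE from edgeR) of the 10 Notch genes in grafts, extracranial, Myc and SHH tumors, with filled points for an adjusted p under 0.05 and an arrowhead at the bound for Hes5 in Myc tumors, which had no counts. Notch2 lies right of 0 in each tumor group (1.55 to 2.54), and Dll1, Dll3 and Hes5 lie left of 0 in all groups but SHH.

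In the order of group means, most neighbours did not differ beyond their spread. For Hes5, Dll1 and Dll3 the order began with SHH tumors and brains, and the next step down was the only one between neighbours that passed the test, from brain to extracranial tumors for Hes5 and from brain to Myc tumors for Dll1 and Dll3. For Notch2 the only such step was the last, from grafts to brain. SHH tumors and brains did not overlap for these 3 genes (36.4% of all tested genes), nor did grafts and extracranial tumors for Dll4 (22.2%), though these steps did not pass. No step between neighbours passed for Notch1, Notch3, Dll4, Jag1, Hes1 or Hey1.

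The genes with the most similar pattern over the 17 libraries were found by the root mean square difference of centred log2(CPM + 1), among 13862 genes with at least 5 CPM in 1 group. For Hes5 they were Crb1, Plch1 and Wnt3 (differences of 0.30, 0.34 and 0.46, where the SD of Hes5 itself was 2.13). For Dll3 they were Dgkg, Pcdha2 and Stxbp5l (0.37 to 0.42, own SD 1.62), and for Dll1 Cecr2, Dchs2 and Pantr2 (0.61 to 0.69, own SD 1.74). Parp8 was nearest to Notch3 (0.41, own SD 0.99), Zdhhc14 to Notch1 (0.51, own SD 0.90) and Six5 to Notch2 (0.54, own SD 0.97). Akna, Aph1c and Gnai2 were nearest to Dll4 (0.38 to 0.42, own SD 0.69). Tmem106c was nearest to Jag1 (0.45, own SD 0.79), Tjap1 to Hes1 (0.52, own SD 0.85) and Plpp7 to Hey1 (0.47, own SD 1.12).

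The wider pathway was followed through 56 other genes, all of them tested. Against brain, 21 rose and 20 fell in grafts, 19 rose and 17 fell in extracranial tumors, 18 rose and 17 fell in Myc tumors, and 1 rose and 1 fell in SHH tumors. Of all tested genes, 24.9% rose and 30.4% fell in grafts, 26.1% rose and 26.1% fell in extracranial tumors, 25.3% rose and 26.8% fell in Myc tumors, and 2.44% rose and 1.94% fell in SHH tumors. These shares are the background of each list count against brain that follows. The 56 genes' median log2 fold changes were 0.19, 0.03, 0.01 and 0.04 in this order of groups, beside -0.16, 0.05, -0.01 and -0.02 for all tested genes. Against SHH tumors, 13 rose and 21 fell in grafts, 15 rose and 16 fell in extracranial tumors, and 11 rose and 17 fell in Myc tumors. In these comparisons 20.4% of all tested genes rose and 25.8% fell in grafts, 18.6% and 19.7% in extracranial tumors, and 19% and 21.9% in Myc tumors. Without the 5 libraries with other tissue, 3 rose and 14 fell in extracranial tumors against SHH tumors, and 1 in all was called between SHH tumors and brain. Grafts had 1 higher (2.16% of all genes) and 4 lower (2.62%) than extracranial tumors, of which 0 higher and 1 lower were left without those libraries.

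Of the other receptors and ligands, Jag2, Dner and Dlk2 were lower than in brain in grafts, extracranial and Myc tumors. Jag2, a Jagged ligand, was at 8.06 ± 1.2 CPM in grafts, 4.60 ± 2.15 in extracranial tumors, 8.17 ± 0.93 in Myc tumors, 23.7 ± 12.8 in SHH tumors and 83.5 ± 14.1 in brains, and the only member of this list to change in SHH tumors (log2 fold change -1.82 ± 0.43, adjusted p = 0.0322). That call was lost without the 2 or the 5 libraries with other tissue (0.0666 and 0.0569), SHH tumor 2 (0.0641), SHH tumor 3 (0.0967) or any 1 brain (0.0853 to 0.101). Dner, a Notch-related protein of neurons, was at 0.855 ± 0.650 CPM in grafts, 17.5 ± 23.4 in extracranial tumors, 9.75 ± 4.34 in Myc tumors and 391 ± 70 in brains. Dlk1, an imprinted relative of the Delta ligands with roles in growth, was at 2021 ± 764 CPM in grafts, 1394 ± 1035 in extracranial tumors, 1064 ± 1109 in Myc tumors and 79.6 ± 91.1 in brains, and rose in all these tumor groups (adjusted p = 0.0149 in grafts, 0.0232 in extracranial tumors and 0.0335 in Myc tumors). The call in extracranial tumors was lost without brain 2 (0.083) or brain 3 (0.0819), and that in Myc tumors without brain 2 (0.109), brain 3 (0.109), Myc tumor 1 (0.0573) or Myc tumor 4 (0.0814). Notch4, the receptor of endothelium, was at 43.7 ± 1.7 CPM in grafts and 13.1 ± 0.6 CPM in brains (1.74 ± 0.41, 0.00258), the group in which Dll4 and the endothelial sum were also highest.

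Of 9 genes that cut and mature the receptor, 6 rose in grafts, 7 in extracranial tumors, 6 in Myc tumors and 0 in SHH tumors against brain, and 0 fell in any of these groups. Over all tested genes 24.9%, 26.1%, 25.3% and 2.44% rose in the same groups. The Adam10 call in extracranial tumors was lost without the 2 or the 5 libraries with other tissue (adjusted p = 0.0839 and 0.107). It was also lost without any 1 brain (0.0533 to 0.102). The call for Aph1a, a gamma-secretase subunit, was lost without brain 2 or 3 in grafts (0.087 and 0.0732) and Myc tumors (0.104 and 0.0868). Adam17, a protease that can shed the Notch ectodomain, was at 178 ± 25 CPM in grafts, 123 ± 22 in extracranial tumors, 108 ± 18 in Myc tumors and 34.0 ± 2.9 in brains. Furin, which cleaves the precursor receptor, was at 153 ± 9 CPM in grafts, 351 ± 179 in extracranial tumors, 639 ± 291 in Myc tumors and 46.0 ± 16.2 in brains, and grafts were below Myc tumors (-2.06 ± 0.43, adjusted p = 0.0199), a call lost without any 1 graft (0.0801 to 0.0921). Psenen and Psen2, subunits of gamma-secretase, rose by smaller folds (log2 fold changes of 0.90 to 1.46 for Psenen and 0.98 to 1.16 for Psen2). Adam17 and Furin have many other substrates.

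Rbpj, the DNA-binding partner of cut Notch, was at 434 ± 35 CPM in grafts, 410 ± 223 in extracranial tumors, 415 ± 98 in Myc tumors, 72.1 ± 18.8 in SHH tumors and 60.7 ± 12.4 in brains. It rose against brain in the first 3 groups (log2 fold changes of 2.84 ± 0.48, 2.76 ± 0.47 and 2.77 ± 0.47, adjusted p = 0.000268, 0.000283 and 0.000283). Processed copies of Rbpj lie elsewhere in the genome, so its value is uncertain. The Mastermind coactivator Maml1 rose in the same groups, to 65.3 ± 10.8 CPM in grafts, 50.7 ± 5.5 in extracranial tumors and 70.9 ± 31.7 in Myc tumors, against 28.6 ± 5.3 in brains. In extracranial tumors its adjusted p was 0.0361, and 0.0519 to 0.127 without the 5 libraries with other tissue, without extracranial tumor 1, 2 or 3 or without brain 2 or 3. Maml3 fell in grafts, to 8.02 ± 2.61 CPM against 29.3 ± 3.4 in brains. Of the 9 genes of this list 5 rose and 2 fell in grafts, 4 rose and 1 fell in extracranial tumors, 3 rose and 0 fell in Myc tumors, and 0 changed in SHH tumors.

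Genes that sort, ubiquitinate or sugar-coat the receptor and its ligands changed in both directions. Of 12 endocytosis and turnover genes, 2 rose and 8 fell in grafts, 1 rose and 5 fell in extracranial tumors and 2 rose and 6 fell in Myc tumors against brain, so that the share that rose was below that of all genes in each group. Dtx1, a ubiquitin ligase of the Deltex family and a Notch target, was at 3.13 ± 1.38 CPM in grafts, 0.711 ± 0.668 in extracranial tumors, 1.61 ± 0.89 in Myc tumors, 47.9 ± 19.9 in SHH tumors and 135 ± 7 in brains. Fbxw7, which marks the cut receptor for breakdown, was at 17.5 ± 2.2 CPM in grafts, 18.2 ± 4.6 in extracranial tumors, 20.7 ± 5.2 in Myc tumors and 71.4 ± 8.6 in brains. Numb, an inhibitor of Notch in dividing cells, was higher, at 58.9 ± 8.9 CPM in grafts, 60.2 ± 13.9 in extracranial tumors and 58.4 ± 15.1 in Myc tumors, against 20.9 ± 1.7 CPM in brains. Of the Fringe enzymes, which alter the choice of ligand, Rfng fell in these groups (log2 fold changes of -2.15, -1.75 and -2.36), and Lfng rose in grafts (1.34 ± 0.42, adjusted p = 0.0146) and in SHH tumors (1.76 ± 0.42, 0.0346), at 73.6 ± 19.7 CPM in SHH tumors and 21.8 ± 4.3 CPM in brains. The call in grafts was lost without brain 3 (0.0553). That in SHH tumors was lost without the 2 libraries with other tissue (0.0621), SHH tumor 2 (0.0673), SHH tumor 3 (0.13) or any 1 brain (0.067 to 0.148).

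Of 16 other Hes, Hey and target genes, 4 rose and 6 fell in grafts, 4 rose and 7 fell in extracranial tumors, 4 rose and 7 fell in Myc tumors and 0 changed in SHH tumors against brain. Of all tested genes 24.9% to 26.1% rose and 26.1% to 30.4% fell in the first 3 of these groups. Hey2, a relative of Hey1, was at 0.460 ± 0.239 CPM in grafts, 0.454 ± 0.336 in extracranial tumors, 0.977 ± 0.531 in Myc tumors and 7.78 ± 1.96 in brains. Fabp7, a lipid carrier of radial glia, was at 0.185 ± 0.051 CPM in grafts and 1.97 ± 3.72 in extracranial tumors and 4.69 ± 6.08 in Myc tumors, against 526 ± 93 in brains. Hes7, the oscillator of the embryonic segmentation clock, rose in the same groups, at 7.56 ± 0.30 CPM in grafts (adjusted p = 0.00456), 3.57 ± 1.35 in extracranial tumors (0.041) and 9.78 ± 8.91 in Myc tumors (0.00213), against 1.07 ± 0.41 CPM in brains. The call for Hes7 in extracranial tumors was lost without the 2 or the 5 libraries with other tissue (0.146 and 0.181), extracranial tumor 1 (0.0612), extracranial tumor 4 (0.0946) or any 1 brain (0.0554 to 0.129). Nrarp, a target that feeds back on Notch, was at 34.1 ± 11.7 CPM in grafts, against 7.57 ± 3.35 in extracranial tumors (2.17 ± 0.49, 0.0306) and 8.34 ± 6.03 in Myc tumors (2.03 ± 0.48, 0.0304). Both calls were lost without the 5 libraries with other tissue (0.0646 for extracranial and 0.0744 for Myc tumors) or any 1 graft (0.0752 to 0.114 and 0.0618 to 0.115), and that over Myc tumors also without Myc tumor 1, 3 or 4 (0.0557 to 0.0655). SHH tumors held 45.2 ± 12.8 CPM of it and brains 24.3 ± 3.3 CPM, from which grafts did not differ by this test (0.54 and 0.438).

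**Figure D5:**
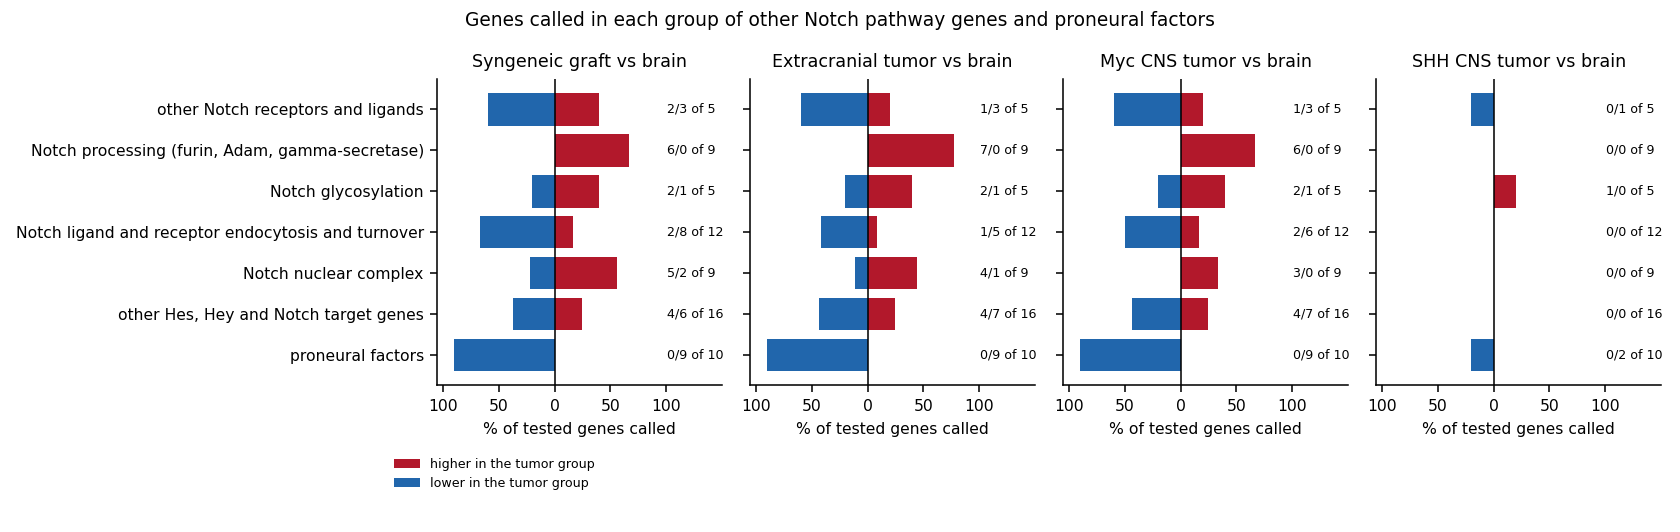
Percent of the tested genes of each list that were called higher (red, to the right) or lower (blue, to the left) than healthy brain by edgeR, in each tumor group, with the counts higher/lower of the genes tested beside each bar. Receptor-processing genes were called in the higher direction in grafts, extracranial and Myc tumors, 9 of 10 proneural factors in the lower direction, and few genes of any list in SHH tumors.

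Proneural factors, here a list of bHLH and related genes, followed the same split. Only some of them are known to switch on Dll1 and Dll3 in newly forming neurons. Of 10 such genes, 9 fell in grafts, 9 in extracranial tumors and 9 in Myc tumors against brain, and all 10 fell in each of these groups against SHH tumors, where 19.7% to 25.8% of all tested genes did. Without the 5 libraries with other tissue, the counts against brain were 9 in grafts, 7 in extracranial tumors and 8 in Myc tumors, and those against SHH tumors 10 in grafts, 7 in extracranial tumors and 9 in Myc tumors. In SHH tumors 2 of the 10 fell against brain, Neurod6 (6.81 ± 3.85 CPM in SHH tumors and 147 ± 87 CPM in brains) and Neurod2 (3.33 ± 3.07 CPM in SHH tumors and 89.1 ± 37.5 CPM in brains), factors of maturing forebrain neurons. The call for Neurod6 (adjusted p = 0.0189) was lost without SHH tumor 2 or 3 or brain 2 or 3 (0.0612 to 0.0941). That for Neurod2 (0.0324) was lost without the 2 or the 5 libraries with other tissue (0.0603 and 0.064), SHH tumor 3 (0.125) or any 1 brain (0.0515 to 0.118).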

How the data were processed

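RNA was measured in 17 libraries of 5 groups taken from the labels. The labels' protocols name miRNeasy extraction, a DNase step and TruSeq Stranded mRNA kits for polyA RNA. The submitters' processing notes list STAR 2.5.3a and mm10. What the authors deposited is 1 table of unnormalized gene counts for each library. How reads were assigned to strands is not given in the sources used here, and genes with an antisense partner are uncertain: the antisense partner had up to 37.6% of the counts of Dll1, 19.1% of Notch1, 7.88% of Dll4, 6.56% of Notch3 and 3.01% of Hes5. Symbols, positions and exon lengths came from GENCODE M21, matched for 50376 of 50600 IDs.

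The test was edgeR's quasi-likelihood test, version 4.0.16 (robust, TMM scaling, filterByExpr with a minimum count of 10) in R 4.3.3, run on the counts as 1 fit of all libraries, 10 contrasts and Benjamini-Hochberg adjustment over 21494 genes, which held 99.96% of the counts. The steps were run on simulated counts with the same spread for every gene. The real genes differ in spread, so that run checks the code and not the error rates here. CPM used TMM-scaled library sizes. The series' design text says that the 14 tumors were separate and that the 3 brains were biological replicates. Where grafts share a parent tumor, which is not given, their p-values reflect a spread that may be technical. No 2 libraries agreed within sampling noise (chi-square per gene of 71.3 or more).

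The members and lists were chosen with earlier results of these data known. Besides the 10 genes, the text names Smarcb1, Adam10 and the 3 genes most similar to each member. It also names up to 4 called genes of each list with the smallest adjusted p per comparison. The alternatives tried were scaling by RLE, no filter on low counts, DESeq2 1.42.0, the compared groups only, a replicate block, 2 or 5 libraries with other tissue left out, and each library left out. Python 3.11.15 drew the figures.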

Additional observations from a re-analysis of the deposited data

Results flagged for a closer look

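Of the 20 groups of 4 libraries checked, 3 held a library far from the others, where chance gives about 1 in 20. Notch1 was at 73.9 CPM in Myc tumor 1, against 17.7 to 26.2 CPM in the other Myc tumors. Myc tumor 1 also held pituitary transcripts (192 CPM) and muscle transcripts (127 CPM) and, of the Myc tumors, the highest endothelial sum (455 CPM). Notch3 was at 112 CPM in extracranial tumor 4, against 13.7 to 24.2 CPM in the other extracranial tumors, and that library had the highest sums of mural markers (923 CPM) and of 8 fibroblast markers (21860 CPM). Hes1 was at 11.8 CPM in Myc tumor 3, against 22.0 to 23.9 CPM in the other Myc tumors. The part of these other transcripts in the levels was not tested.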

How the results depend on the processing

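Of the 33 calls of members, 25 held in every alternative that gave an adjusted p and with each library left out, and none changed sign. The others were Notch2 (grafts and SHH tumors against brain), Notch3 (Myc against SHH tumors), Dll4 (grafts against Myc and SHH tumors) and Hes1 (extracranial and SHH tumors against brain, grafts against SHH tumors), whose values with 1 library left out stand in the report. With every gene tested, Notch2 in grafts had an adjusted p of 0.0654. With the compared groups only, Notch2 in SHH tumors had 0.0652 and Hes1 in grafts against SHH tumors 0.0565. Without the 2 libraries with other tissue, Dll4 in grafts against SHH tumors had 0.0558. DESeq2 gave no adjusted p for Notch3 in any of the 10 comparisons, which is not counted as a lost call. The Notch3 call in Myc tumors against brain thus held in 6 alternatives, without DESeq2.

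Counts of members called moved by over 1.5 times in 4 of the 10 comparisons. Grafts against extracranial tumors had 0, but 1 by DESeq2 and without the 5 libraries with other tissue, and 0 to 1 with 1 library left out. Grafts against Myc tumors had 1, but 0 with every gene tested and with the replicate block, 2 by DESeq2 and 2 with the compared groups only, and 0 with any library left out. Extracranial against Myc tumors had 0, but 1 by DESeq2. SHH tumors against brain had 2, but 1 with the compared groups only, 1 with the replicate block, and 0 to 2 with 1 library left out.

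Counts over all genes moved most between the tumor groups nearest each other. Grafts against extracranial tumors had 1028 genes, but 514 with every gene tested, 3654 by DESeq2, 110 with the compared groups only, 430 with the replicate block, 604 without 2 libraries with other tissue, and 56 to 1970 with 1 library left out. Grafts against Myc tumors had 1290, but 809 with every gene tested, 3673 by DESeq2, 578 with the replicate block, and 58 to 1256 with 1 library left out. Extracranial against Myc tumors had 4, but 10 with RLE size factors, 1217 by DESeq2, 0 with the compared groups only, 0 with the replicate block, 49 without the 5 libraries, and 0 to 94 with 1 library left out. Extracranial against SHH tumors had 8223, but 4585 with the compared groups only and 4449 without the 5 libraries. SHH tumors against brain had 940, but 585 with every gene tested, 2821 by DESeq2, 474 without the 2 and 496 without the 5 libraries, and 62 to 821 with 1 library left out. Apart from the construction of the alternatives, the cause was not tested.

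The labels state no pairing of libraries with the same number. Of 31 same-numbered pairs 2 had a correlation of deviations over 0.1 (range -0.18 to 0.14), and 7 of 17 libraries were closest to their own number. The number that chance would give was not computed, so these values cannot settle whether samples were paired. Under the replicate block, Notch2 in grafts (adjusted p = 0.0561) and in SHH tumors (0.0635) against brain and Dll4 in grafts against Myc tumors (0.102) were no longer called, and Notch3 in extracranial tumors against brain was (0.03). DESeq2 shifted the median log2 fold change of all genes by -0.10 in extracranial against SHH tumors. Outside the 33 calls, 15 tests passed under some alternative. Depth limits Hes5 and Dll3 in grafts, extracranial and Myc tumors, where a few counts or none were found.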
